A study of Homo sapiens with 30 samples.

Results

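Cells of SW1783, an established human astrocytoma line, were compared after 24 h with the ethanol extract of Soshiho-tang at 20 µg/mL (3 libraries), with that of Yijin-tang at 20 µg/mL (3 libraries), or with dimethyl sulfoxide (DMSO) alone as vehicle (3 libraries). Both extracts are made from mixed herbs, and 20 µg/mL was the lowest concentration tested. The 6 extract libraries were pooled into 1 arm and set against the 3 vehicle libraries, so that the comparison used 9 of the 30 RNA sequencing libraries of the series. A gene counts as shared when it passed the test in the pooled comparison and in each extract's own comparison with vehicle, all in the same direction. The labels of the vehicle give 0.1% DMSO and the text of the series gives 2%, and the labels of the extract samples do not give DMSO. Whether replicate libraries stem from different cultures is not said in the labels, and p-values therefore reflect the spread among these 9 libraries, some of which may be technical.

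Treatment and library set coincide in this comparison. The vehicle libraries carry names with the prefix E1 and the 6 extract libraries names with the prefix 15, so a change with extract and a change between sets cannot be told apart. The titles of all 9 libraries carry the same label, BatchE, and the library set is read here from the name prefix alone. The vehicle libraries also stood apart from all 27 other libraries in measures that no single gene sets. Levels are in CPM, the gene's count per M counted reads of its library. The reads are those of genes kept by a filter, scaled between libraries by TMM factors over all 30 libraries. Across genes with a mean of at least 10 CPM, the level as log2(CPM + 1), relative to the mean of all libraries, rose by 0.078 to 0.135 for each 10 points of GC content in the vehicle libraries, against -0.087 to 0.024 in the other 27. The share of estimated counts that were not whole numbers, which RSEM gives to genes whose reads also match another gene, was 10.6% to 10.73% with vehicle and 9.24% to 10.09% in the other 27. Total counts ran from 24.1 to 25.6 M with vehicle and from 25.1 to 32.9 M with the extracts, so that 1 CPM stood for more than 20 reads.

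The line was checked against cell type markers. Of 6 astrocyte markers 5 were low in all 9 libraries: GFAP and S100B, which mark mature astrocytes, stayed at or below 0.252 CPM, AQP4 at or below 0.0371 CPM, ALDH1L1 at or below 0.0432 CPM and SLC1A2 at or below 0.378 CPM. The other one, the glutamate transporter SLC1A3, was at 31.6 to 33.4 CPM with vehicle and 25.1 to 29.9 CPM with extract. Markers of other cell types were likewise uneven. AIF1, EPCAM and MOG, which mark microglia, epithelium and oligodendrocytes, stayed at or below 0.0598 CPM. The leukocyte list also holds CD68, a lysosomal protein, at 122.2 to 199.2 CPM and PTPRC, the CD45 antigen, at 10.2 to 10.7 CPM with vehicle and 11.6 to 12.9 CPM with extract. MBP, of the oligodendrocyte list, was at 5.89 to 8.04 CPM and SNAP25, of the neuronal list, at 24.6 to 30.4 CPM. The part of other cell types in the results was not tested. VIM, the mesenchymal intermediate filament, was at 5039 to 5122 CPM with vehicle and 4915 to 5589 CPM with extract and did not pass the test. The other mesenchymal markers were also high in the 9 libraries. COL1A1 was at 2974 to 4039 CPM, COL1A2 at 1484 to 1893 CPM and THY1 at 428.6 to 556.6 CPM. The line thus carried SLC1A3 and high mesenchymal markers, while GFAP, S100B and AQP4 were close to 0.

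As background, immediate early genes are transcribed within minutes of a growth factor or stress signal and need no new protein. Many of them carry a CArG box, the site of serum response factor (SRF), or a cyclic AMP response element (CRE), the site of the CREB family, close to their start. Their RNAs are short-lived, so their levels follow the state of the culture at harvest. RNAs of the mitochondrial genome, by contrast, are copied from both strands of a small circular genome by a polymerase of their own and encode core subunits of the respiratory chain.

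Of 16213 genes tested with edgeR's quasi-likelihood test, 4144 (25.6%) differed between the extracts and vehicle at an adjusted p under 0.05. Of these, 2184 (13.5%) were higher and 1960 (12.1%) lower with extract, a balance that turned to 1751 higher and 2301 lower with upper quartile scaling. Counts of list members below are to be read against the 13.5% and 12.1%. Most changes were small: the median size among the genes that passed was 0.26 on the log2 scale, and 418 genes (2.58%) changed by at least 1.5-fold, 151 higher and 267 lower. Shared changes numbered 2273 (14%), 1218 of the 2184 higher and 1055 of the 1960 lower. Counts of shared list members below are to be read against these. Both single-extract contrasts use the same vehicle libraries, so their calls are not independent. Over all genes tested the median log2 fold change was 0.004. In 4178 of the genes tested (25.8%) the vehicle and extract libraries did not overlap, and so in 3512 of the 4144. The pooled count was 2686 without vehicle replicate 2 and 2632 without vehicle replicate 3, and the shared count 1429 and 1314. The shared count was also 1496 without Yijin-tang replicate 1.

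The direction of change ran with the GC content of the transcript. Genes were split into 10 bins of equal size. In the bin with the lowest GC content (27.4% to 38.4% of the longest transcript), 563 genes were higher and 25 lower with extract. In the bin with the highest (61.2% to 75.2%), 23 were higher and 460 lower. A fit with a correction for GC content and length called 2753 genes (17%), with 9.18% of all genes higher and 7.8% lower. Counts of list members with the correction are to be read against these shares. Among the 2753 were 1986 of the 4144 (47.9%), and the shared count came to 1243. What part of the changes comes with GC content was not tested beyond this, so genes and groups are given below together with their corrected values where these end the call or differ by over 1.5 times.

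**Figure D1:**
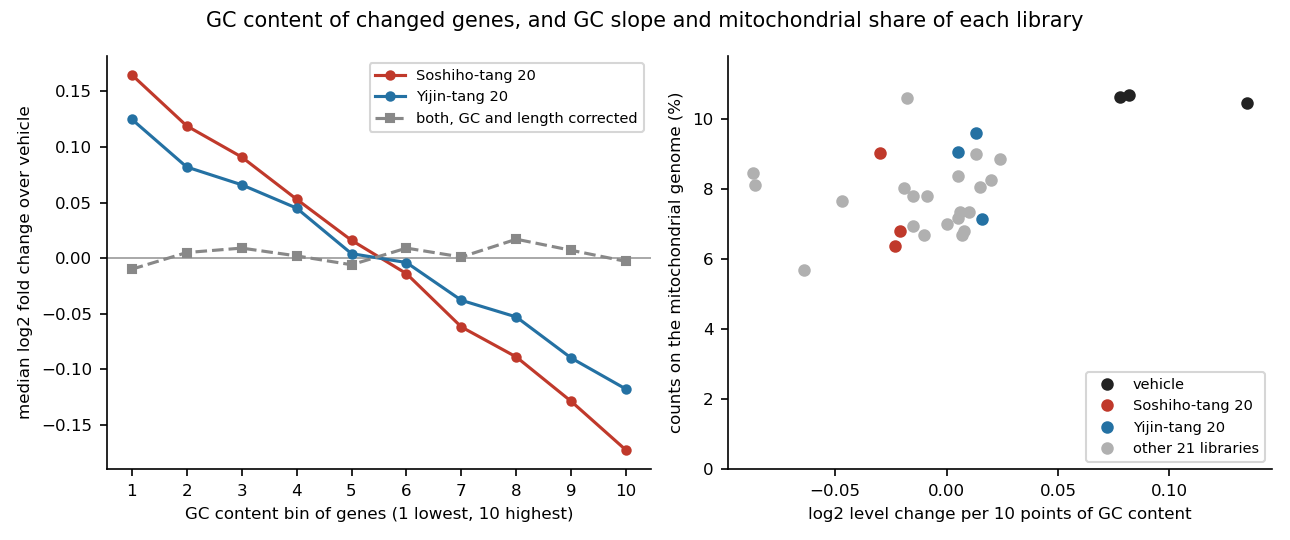
Left, median log2 fold change over vehicle for genes in 10 bins of GC content (1 is the lowest), for each extract and for the pooled fit with GC and length correction. Right, for each of the 30 libraries, the log2 change in level per 10 points of GC content against the percent of counts on the mitochondrial genome. The medians fall from 0.165 and 0.125 in the lowest bin to -0.173 and -0.118 in the highest, and the 3 vehicle libraries lie to the right of all others.

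Part of the immediate early genes were lower with both extracts. Of 29 measured members 12 were lower and none higher by edgeR's quasi-likelihood test, where 12.1% of all genes were lower. All 12 were shared, and with Yijin-tang alone 1 other member was higher. The list's median log2 fold change was -0.22 against 0.004 over all genes. With GC and length correction 10 were lower and 1 higher, where 7.8% and 9.18% of all genes were, and the median was -0.13. The promoters of 4 of the 12 are shown here because they hold a motif of the list's 2 best-known regulators. RefSeq promoters (GRCh38.p14) were found for 21 of the 29 genes, and the 250 bases before the start were searched on both strands for the CArG box and for the CRE (TGACGTCA), both of which read the same on either strand. Capitals mark CArG boxes in EGR1, EGR2 (the third of its listed starts) and SRF, and the CRE in DUSP1. SRF was chosen for its promoter after its values were seen.
EGR1 (chr5:138465229-138465478, plus strand): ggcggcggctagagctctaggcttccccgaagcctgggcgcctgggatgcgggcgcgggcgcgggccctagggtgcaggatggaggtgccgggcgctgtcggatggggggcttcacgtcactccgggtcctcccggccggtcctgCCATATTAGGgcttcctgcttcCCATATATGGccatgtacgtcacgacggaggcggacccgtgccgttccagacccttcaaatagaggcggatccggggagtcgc
EGR2 (chr10:62816367-62816616, minus strand): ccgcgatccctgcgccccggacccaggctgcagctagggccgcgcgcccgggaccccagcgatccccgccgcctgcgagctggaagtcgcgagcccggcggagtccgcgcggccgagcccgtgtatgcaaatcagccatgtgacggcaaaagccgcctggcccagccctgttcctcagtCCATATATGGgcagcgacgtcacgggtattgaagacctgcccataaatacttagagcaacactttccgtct
SRF (chr6:43171019-43171268, plus strand): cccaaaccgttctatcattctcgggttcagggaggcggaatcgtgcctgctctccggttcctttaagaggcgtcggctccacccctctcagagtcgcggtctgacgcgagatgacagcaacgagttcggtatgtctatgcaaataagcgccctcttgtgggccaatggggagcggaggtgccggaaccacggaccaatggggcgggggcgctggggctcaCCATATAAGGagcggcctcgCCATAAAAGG
DUSP1 (chr5:172771196-172771445, minus strand): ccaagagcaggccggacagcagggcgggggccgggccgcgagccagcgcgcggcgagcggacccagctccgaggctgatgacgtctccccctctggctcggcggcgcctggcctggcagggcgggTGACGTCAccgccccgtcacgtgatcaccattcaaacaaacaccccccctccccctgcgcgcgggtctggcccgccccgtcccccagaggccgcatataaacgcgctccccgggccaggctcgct
EGR1 held 2 CArG boxes, with first bases at -105 and -83 from the start, SRF held 2, at -30 and -10, and EGR2 held 1, at -71. Among the genes with a promoter, a CArG box stood in 3 of the 10 that were lower and in 0 of the 11 that were not called, and a CRE in 1 of 10 and 1 of 11. Of 35114 promoters of 27303 genes, 1.16% held a CArG box and 1.65% this CRE. These shares are per promoter, while the counts above are per gene and took a match at any listed start, so the measures differ. A match describes the letters only and shows no binding.

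EGR1 (chr5:138465490-138469315, GRCh38, plus strand), a zinc finger transcription factor induced by serum and stress, had the largest fall among the named protein-coding genes whose exons overlap no other gene. Its level was 147.3, 159.2 and 155.1 CPM in the vehicle libraries and 32.8 to 41.2 CPM with extract, with a median of 38.8. All 3 vehicle libraries lay above all 27 other libraries of the series, whose highest was 56.2 CPM. Vehicle lay outside the range of the 27 others, above or below, in 35.2% of the genes that passed in the pooled comparison. The log2 fold change was -2.02 ± 0.061 (SE; adjusted p = 2.28e-11), at -2.06 ± 0.075 with Soshiho-tang and -1.99 ± 0.075 with Yijin-tang. The correction left it at -1.98.

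FOS, which encodes a subunit of the AP-1 factor, was at 4.37, 4.27 and 5.41 CPM with vehicle and at 2.3 to 3.3 CPM with extract (median 2.77). Its extract and vehicle libraries did not overlap, nor did those of the next genes, as was so for 25.8% of all genes tested. Its log2 fold change was -0.74 ± 0.132 (adjusted p = 0.00126). EGR2 (0.84, 0.985 and 1.08 CPM with vehicle, 0.408 to 0.618 with extract, median 0.496) and the orphan nuclear receptor NR4A3 (1.22, 1.44 and 1.51 CPM with vehicle, 0.667 to 0.888 with extract, median 0.74) were close to the lower limit of detection. Their log2 fold changes were -0.94 ± 0.216 (adjusted p = 0.00563) and -0.89 ± 0.183 (adjusted p = 0.0031). Both stayed below 2 CPM, so counting error is a larger part of their spread than for EGR1.

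Other members changed less. MYC, a growth regulator, went from 68.7 ± 0.509 CPM (SD, n = 3) to 53.6 ± 3.71 (SD, n = 6), a log2 fold change of -0.35 ± 0.054 (adjusted p = 4.72e-04). SRF itself went from 98.3 ± 1.26 to 84 ± 2.15 CPM (-0.22 ± 0.039, adjusted p = 0.00123). DUSP1, a phosphatase that switches off MAP kinases, went from 42.3 ± 1.49 to 34.7 ± 3 CPM (-0.28 ± 0.066, adjusted p = 0.00699). Among feedback genes of the ERK pathway 3 of 18 were lower and none higher (3 and 1 with the correction), a share near the 12.1% of all genes, and 1 of the 3 was shared. DUSP5, an ERK phosphatase, had a log2 fold change of -0.42 ± 0.078 (adjusted p = 0.00161). SPRY2 (-0.16) and PHLDA1 (-0.13) completed the 3 and lost their calls when single vehicle libraries were left out.

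Of 21 contractile targets of SRF and of the cofactor YAP 3 were higher and 1 lower, no larger a share than the 25.6% called over all genes, with a median of 0.015. With the correction 4 were higher and 1 lower, where 9.18% and 7.8% of all genes were, and the median was 0.125. The higher share was then above that of all genes. ANKRD1, a YAP target encoding a cardiac-type ankyrin repeat protein, was at 10.1, 8.86 and 9.08 CPM with vehicle and 13.8 to 17 CPM with extract (median 16). All 6 extract libraries were above all vehicle libraries, and the log2 fold change was 0.76 ± 0.082 (adjusted p = 4.16e-05). ACTA2, smooth muscle actin, rose by 0.29 ± 0.053 and AMOTL2 by 0.19 ± 0.042 (0.31 with the correction) on the same scale. FLNA, an actin crosslinker with a GC-rich transcript, was the lower member at -0.26, and it lost the call with the correction (-0.05, adjusted p = 0.502).

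**Figure D2:**
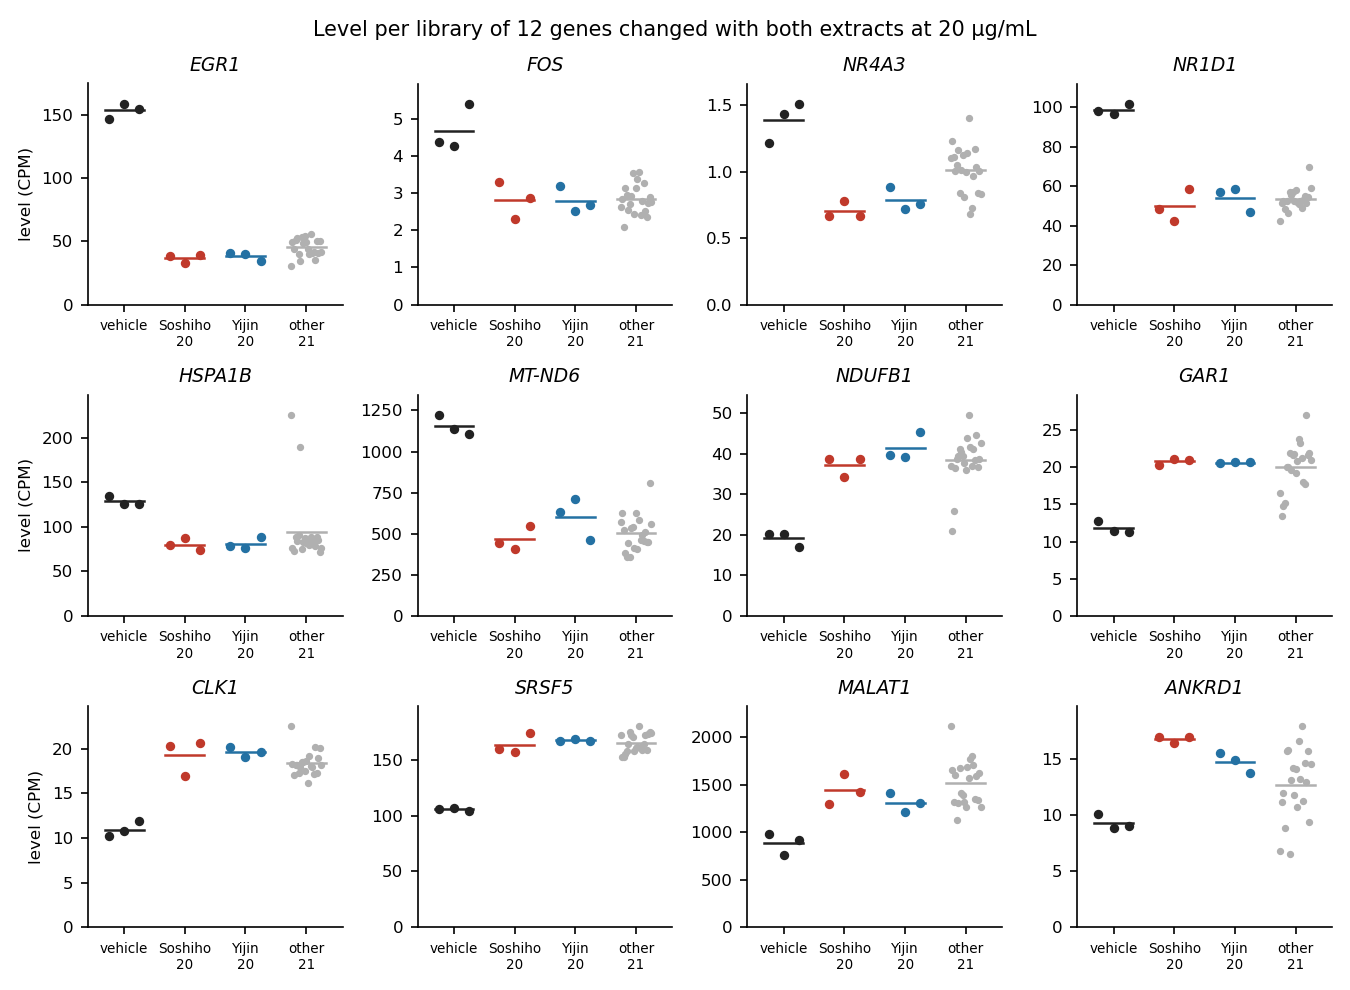
Level (CPM, linear axis from 0) of 12 genes in each library, by group: vehicle, Soshiho-tang 20 µg/mL, Yijin-tang 20 µg/mL and the other 21 libraries of the series; points are libraries and lines are group means. For all 12 genes the vehicle libraries do not overlap the 6 extract libraries, as in 25.8% of all genes tested. The naming rule required this of EGR1, NDUFB1, GAR1 and CLK1. EGR1 stands at 147.3 to 159.2 CPM with vehicle against at most 41.2 CPM with extract.

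RNAs of the mitochondrial genome were mostly lower with extract. Of 13 measured protein-coding members 11 were lower and none higher, 7 of them shared, and the median log2 fold change was -0.65 (-0.72 with the correction). MT-ND6 (chrM:14149-14673, minus strand), the complex I subunit encoded on the other strand from the rest, was at 1223, 1137 and 1107 CPM with vehicle and 405.4 to 711.2 CPM with extract (median 503.8). Every vehicle library lay above all 27 others, and the log2 fold change was -1.11 ± 0.133 (adjusted p = 9.38e-05). MT-ATP8, a short subunit of the ATP synthase, was at 1115, 1367 and 1146 CPM against 332.9 to 660.6 CPM with extract (median 520.9; -1.21 ± 0.152, adjusted p = 1.33e-04). MT-ND4, of complex I, went from 15160 ± 340.3 to 8637 ± 1895 CPM (-0.81 ± 0.135, adjusted p = 8.23e-04), and MT-ND4L fell by 0.80 ± 0.083 on the log2 scale. Overlap among mitochondrial entries was not assessed, and the strand setting of the counting is not given in the sources used here. How reads of these entries were assigned is thus uncertain.

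Members differed in size of change. MT-CO1, the catalytic subunit of cytochrome oxidase, fell by 0.39 ± 0.114 (adjusted p = 0.0209) and MT-ND2 by 0.53 ± 0.167 (adjusted p = 0.0309), and both lost the call when single vehicle libraries were left out. MT-ND2, MT-CO1, MT-CO2 and MT-CYB passed with Soshiho-tang and not with Yijin-tang, where their adjusted p lay between 0.0839 and 0.174. No member differed between the extracts by the direct test. MT-ND3 (-0.04, adjusted p = 0.894) and MT-CO3 (-0.23, adjusted p = 0.2) were the 2 members that did not pass in the pooled comparison.

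As a share of all counts, the mitochondrial genome held 10.47%, 10.7% and 10.63% in the vehicle libraries. The share was 6.8%, 6.37% and 9.03% with Soshiho-tang and 9.05%, 9.59% and 7.15% with Yijin-tang. The means were 10.6 ± 0.118 (SD, n = 3) and 8 ± 1.38 (SD, n = 6), a difference of -2.6 points (two-sided exact permutation test over 84 assignments, p = 0.0238). Among the other 21 libraries the share ran from 5.68% to 10.61%, with 1 library above 10%. Fewer mitochondrial RNA molecules per cell and more RNA of other kinds cannot be told apart in these shares.

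Among 43 measured nuclear genes of the respiratory chain 11 were higher and none lower, where 13.5% and 12.1% of all genes were, and 4 of the 11 were shared. The median was 0.11 (9 higher and 1 lower with the correction, median 0.057). With Soshiho-tang alone 4 were higher and 1 lower, and with Yijin-tang alone 11 and none. NDUFB1 (chr14:92116122-92121917, minus strand), an accessory subunit of complex I, was at 20.3, 20.2 and 17 CPM with vehicle and 34.2 to 45.3 CPM with extract (median 39). Its vehicle libraries lay below all 27 others, and the log2 fold change was 1.04 ± 0.083 (adjusted p = 4.15e-06). UQCRB, of complex III, rose from 96.5 ± 8.28 to 156.9 ± 15.6 CPM (0.71 ± 0.081, adjusted p = 7.08e-05), although at least 1 of the other 21 libraries fell to the vehicle level. NDUFB9 (0.41 ± 0.059) and COX6C (0.39 ± 0.065) completed the 4 largest.

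Lists of RNA processing and ribosome production held more higher than lower members, where 13.5% of all genes were higher and 12.1% lower. Among 28 splicing regulators 16 were higher and none lower, 11 of them shared, with a median of 0.18. These transcripts are poor in GC, with a median of 40.6% against 48.1% over all genes, and the correction left 11 higher and a median of 0.13. CLK1 (chr2:200853009-200864744, minus strand), a kinase of SR splicing factors, was at 10.2, 10.8 and 11.9 CPM with vehicle and 16.9 to 20.6 CPM with extract (median 19.9). SRSF5, an SR protein, was at 105.8, 107.1 and 104.2 CPM against 157.3 to 174.1 CPM with extract (median 167.2). For both, every vehicle library was below all 27 others. CLK1 rose by 0.83 ± 0.077 (adjusted p = 1.47e-05) and SRSF5 by 0.66 ± 0.044 (adjusted p = 8.98e-07) on the log2 scale. The related kinase CLK4 rose by 0.46 ± 0.084 and HNRNPDL, an hnRNP protein, by 0.43 ± 0.046.

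Nuclear-retained RNAs and cold-inducible RNA-binding proteins included several rises of the same size. MALAT1, a long noncoding RNA of nuclear speckles, was at 982.3, 762.1 and 923.1 CPM with vehicle and 1212 to 1610 CPM with extract (median 1358; 0.64 ± 0.088, adjusted p = 2.52e-04). NEAT1, the scaffold of paraspeckles, rose by 0.45 ± 0.077 and OIP5-AS1 fell by 0.24 ± 0.048, so that 3 of the 8 measured RNAs were higher and 1 lower. Of the 4 cold-inducible genes 3 were higher, among them RBM3 (230.9 ± 12.6 to 311.7 ± 22.5 CPM, 0.44 ± 0.061) and CIRBP (71.6 ± 2.43 to 90.1 ± 4.56 CPM, 0.34 ± 0.050). CIRBP rose by 0.47 with the correction, and neither gene's vehicle libraries were separate from all 27 others.

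Ribosome biogenesis genes were higher for 12 of 27 and lower for 2, where 13.5% and 12.1% of all genes were. GAR1, a protein of the H/ACA particles that guide pseudouridylation, was at 12.8, 11.4 and 11.3 CPM with vehicle and within 20.4 to 21.1 CPM with extract (median 20.7). Its extract libraries lay close together and apart from vehicle, with a log2 fold change of 0.81 ± 0.058 (adjusted p = 1.54e-06). NOP16 rose by 0.35 ± 0.065, and GNL3 by 0.35 ± 0.050 (0.23 with the correction). Of 16 hosts of small nucleolar RNAs 7 were higher and 1 lower, with TAF1D at 0.60 ± 0.051 and SNHG6 at 0.57 ± 0.115. Cytosolic ribosomal protein genes were higher for 17 of 56 and lower for 3, and Yijin-tang alone gave 21 and 2 where Soshiho-tang gave 9 and 4. RPL37 (0.63 ± 0.080), RPS27 (0.59 ± 0.080) and RPL22 (0.50 ± 0.046) were among the largest. Their copies in the genome include many pseudogenes, and how reads were divided among them can differ between library sets.

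Of 30 mitosis genes 14 were higher and 1 lower, where 13.5% and 12.1% of all genes were, with a median of 0.125. With the correction 4 were higher and 1 lower, where 9.18% and 7.8% of all genes were, with a median of 0.069. CCNA2, cyclin A, went from 73.9 ± 1.64 to 92.4 ± 1.5 CPM (0.33 ± 0.039, adjusted p = 8.62e-05; 0.20 with the correction). MKI67, the Ki-67 antigen, was the lower member, from 398.8 ± 29.6 to 323.5 ± 31.7 CPM (-0.30 ± 0.074, adjusted p = 0.00935). Of 35 DNA replication genes 6 were higher and none lower, a share near the 13.5% of all genes, with 4 and 1 after the correction. Among them was RRM2, the small subunit of ribonucleotide reductase (0.35 ± 0.040). PCLAF, a partner of the sliding clamp PCNA whose exons overlap another gene, went from 34.8 ± 0.165 to 62.1 ± 2.56 CPM (0.84 ± 0.048, adjusted p = 1.43e-07).

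Circadian clock genes were lower for 8 of 18 and higher for 2, where 12.1% and 13.5% of all genes were. The median was -0.16, and with the correction 6 were lower and 1 higher. NR1D1 (chr17:40092787-40100725, minus strand), the repressor REV-ERB alpha, was at 98.1, 96.6 and 101.9 CPM with vehicle and 42.2 to 58.8 CPM with extract (median 52.8). No other library of the series reached the vehicle level, and the log2 fold change was -0.92 ± 0.086 (adjusted p = 1.47e-05). PER1 fell by 0.35 ± 0.049 (0.18 with the correction). DBP, an output gene of the clock, fell by 0.46 ± 0.11 and lost the call with the correction (adjusted p = 0.0505). CRY1, a repressor of the clock, rose from 27.9 ± 0.946 to 35.6 ± 1.64 CPM (0.36 ± 0.052, adjusted p = 3.34e-04; 0.20 with the correction). NR1D1 shares exon sequence with a gene on the opposite strand, and the strand setting of the counting is not given in the sources used here. PER1, DBP and CRY1 were also outside the set of protein-coding genes without exon overlap. That set held 7 of the clock genes, of which 3 were lower and 1 higher. The hour of harvest of each library is not in the labels.

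Heat shock genes were lower for 6 of 18 and higher for 1, where 12.1% and 13.5% of all genes were. HSPA1B, an inducible HSP70, was at 135, 126.2 and 126.1 CPM with vehicle and 73.7 to 88.2 CPM with extract (median 79). Extract and vehicle did not overlap, and the log2 fold change was -0.67 ± 0.057 (adjusted p = 7.37e-06). Its near-identical copy HSPA1A fell by 0.28 ± 0.045, and reads of both cannot be assigned with certainty. HSPH1, a co-chaperone of HSP70, fell by 0.30 ± 0.040, while HSPE1, the mitochondrial HSP10, rose by 0.47 ± 0.065. Endoplasmic reticulum chaperone genes were lower for 5 of 22 and higher for 2 (5 and none with the correction), with SEC24D (-0.29 ± 0.042) and HERPUD1 (-0.28 ± 0.045) the largest falls.

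Matrix genes were lower for 15 of 37 and higher for 4, where 12.1% and 13.5% of all genes were, with a median of -0.10. With the correction 7 were lower and 3 higher, where 7.8% and 9.18% of all genes were, and the median was -0.02. COL1A1, the alpha 1 chain of type I collagen, was at 4039, 4005 and 3797 CPM with vehicle and 2974 to 3258 CPM with extract (median 3082). All vehicle libraries were above all 27 others, and the log2 fold change was -0.34 ± 0.046 (adjusted p = 2.13e-04), which the correction brought to -0.15 (adjusted p = 0.0425). FN1, fibronectin, fell by 0.25 ± 0.059 and kept most of its change (-0.23). HSPG2, perlecan, fell by 0.38 ± 0.068 and lost the call with the correction (adjusted p = 0.133). COL11A1 rose by 0.31 ± 0.055.

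NOTCH1 and NOTCH3, receptors of the Notch pathway, were lower with extract. NOTCH1 went from 72 ± 3.22 to 53.4 ± 4.79 CPM (-0.42 ± 0.066, adjusted p = 4.86e-04) and NOTCH3 from 26 ± 1.04 to 19.2 ± 1.81 CPM (-0.43 ± 0.073, adjusted p = 8.16e-04), and the correction brought them to -0.21 and -0.23. The ligand JAG1 fell by 0.29 ± 0.042. Of the 7 measured members of the Notch list 4 were lower and 1, HES4, was higher; HES4 stayed at or below 1.2 CPM and lost its call without vehicle replicate 1. Of 14 Wnt targets and R-spondin receptors 5 were lower and 3 higher, where 12.1% and 13.5% of all genes were. With the correction 2 were lower and 3 higher. NKD1, an inhibitor of Wnt signalling, was at 1.3, 1.64 and 1.6 CPM with vehicle and 0.448 to 0.893 CPM with extract (median 0.522; -1.35 ± 0.227, adjusted p = 8.27e-04). DKK1, a secreted Wnt inhibitor, rose from 321.9 ± 16.4 to 413.5 ± 13.4 CPM (0.37 ± 0.047; 0.24 with the correction).

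Lists of other stress and metabolic responses changed in smaller part. Among 25 inflammatory genes 3 were higher and none lower, and NFKBIA, the inhibitor of NF-kappa-B that NF-kappa-B itself induces, was at 33.1, 33.1 and 29 CPM with vehicle and 40.6 to 50.3 CPM with extract (median 45.6). Its vehicle libraries lay below all 27 others (0.53 ± 0.068, adjusted p = 1.44e-04). BIRC3, another NF-kappa-B target, rose by 0.51 ± 0.079 (0.33 with the correction). CCL2 (0.39 ± 0.127) overlapped between the arms, did not pass with Soshiho-tang (adjusted p = 0.217) and lost its call without single libraries of vehicle and of extract and with the correction (0.25, adjusted p = 0.161). Cholesterol synthesis genes were higher for 8 of 25 and lower for 2 (6 and 1 with the correction), among them SC5D (0.43 ± 0.067), HMGCS1 (0.36 ± 0.056) and ACAT2 (0.30 ± 0.060). Targets of NRF2 were higher for 6 of 29 and lower for 2 (5 and none with the correction), with TXNRD1 at 0.27 ± 0.044 and GCLC at 0.25 ± 0.049. ATF4 targets gave 2 higher and 3 lower of 32, and p53 targets 5 and 2 of 27 (3 and 2 with the correction), with CDKN1A lower (-0.39 ± 0.082). Hypoxia and glycolysis genes gave 4 higher and 9 lower of 34, with CA9 at -0.35 ± 0.068, and 4 and 5 with the correction. For inflammatory genes and ATF4 targets the shares in each direction were below the 13.5% higher and 12.1% lower of all genes. Without the correction, the lower shares of the cholesterol, NRF2 and p53 lists and the higher share of the hypoxia list were also below these.

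**Figure D3:**
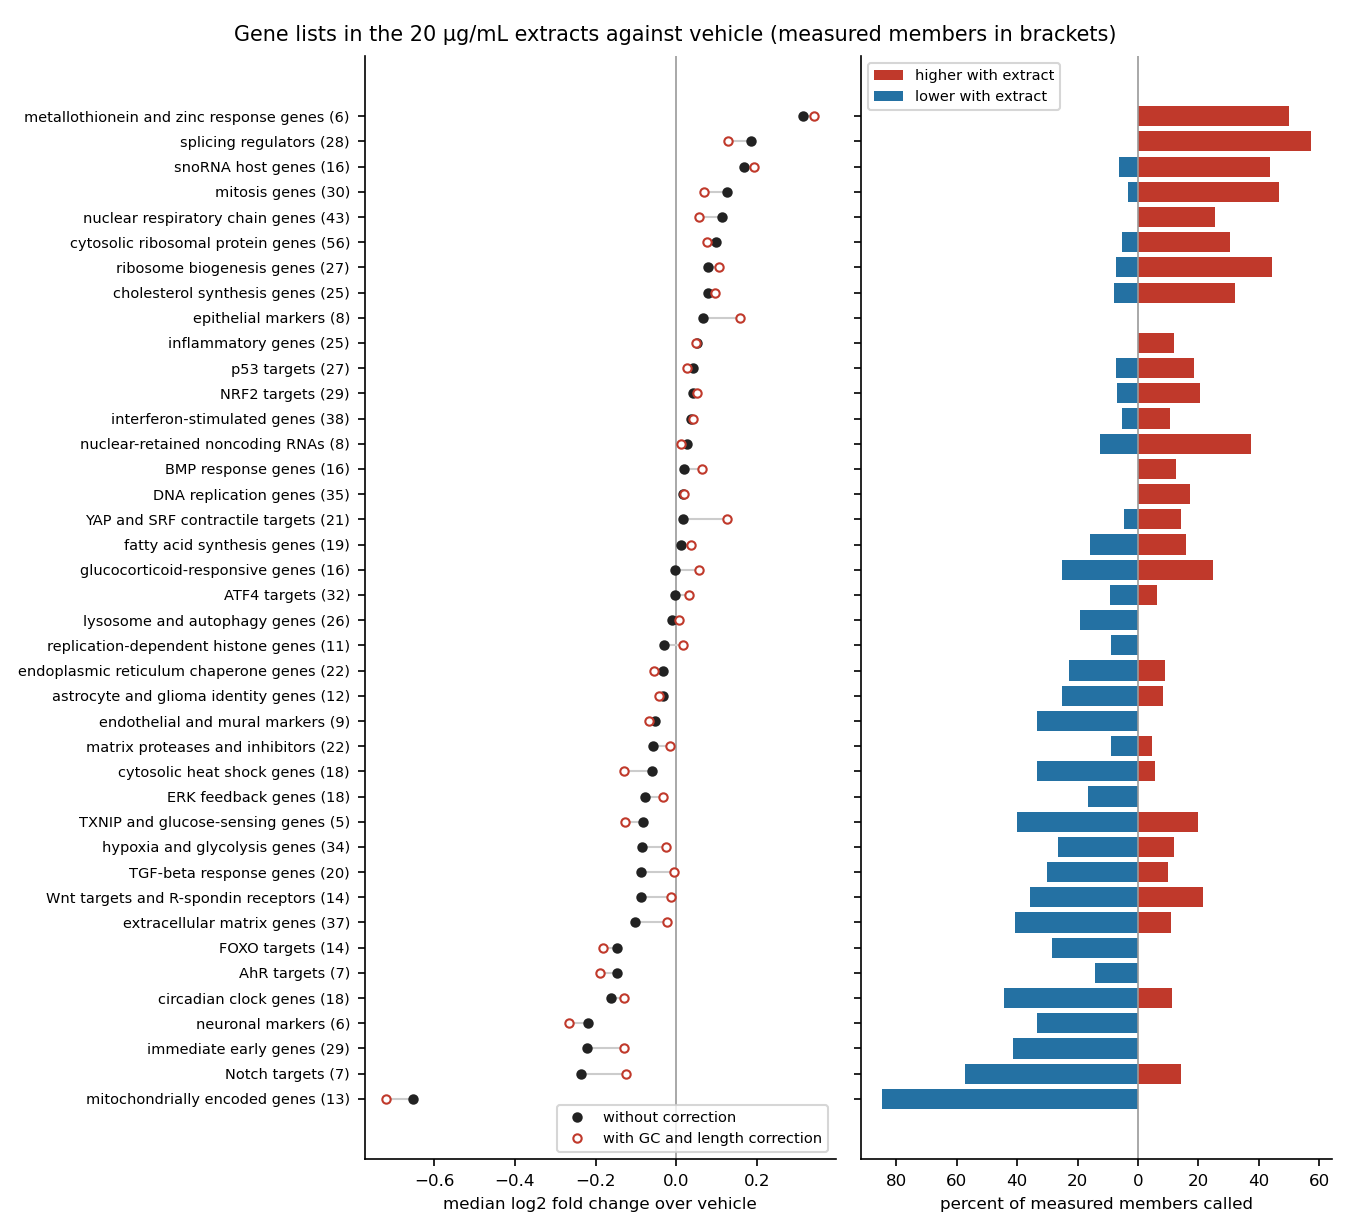
Gene lists in the pooled comparison with at least 5 measured members (number in brackets). Left, the list's median log2 fold change without correction (filled) and with GC and length correction (open); right, the percent of measured members called higher (to the right of 0) and lower (to the left of 0). Mitochondrially encoded genes lie lowest, at -0.65 and -0.72, and splicing regulators have 16 of 28 members higher.

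The largest fold changes of all fell on entries that share sequence with another gene. TUBA1B-AS1, which lies antisense to the tubulin gene TUBA1B, was at 184.5, 161.3 and 199 CPM with vehicle and 0.04 to 0.565 CPM with extract, a log2 fold change of -9.88, and at most 2.13 CPM in any of the 27 libraries other than vehicle. TUBA1B itself went from 2265 ± 50.6 to 2081 ± 117.1 CPM and did not pass (-0.12, adjusted p = 0.123). Read-through entries, which join 2 neighbouring genes, were lower for PEDS1-UBE2V1 (18.6 ± 5.54 to 5.02 ± 2.23 CPM), RPS10-NUDT3 (4.61 ± 1.32 to 1.02 ± 0.804 CPM), DNAAF4-CCPG1 (2.17 ± 1.22 to 0.0946 ± 0.232 CPM) and NME1-NME2 (4.36 ± 0.529 to 1.73 ± 0.716 CPM). The pseudogene NPEPPSP1 had no count in any vehicle library and 0.12 to 2.83 CPM with extract, and it lost its call without single vehicle libraries. Changes of at least 1.5-fold passed for 10.4% of pseudogenes, 13.9% of read-through genes and 1.76% of genes whose exons overlap no other. Whether these entries differ because of treatment or because reads were assigned differently in the 2 library sets cannot be told apart.

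Some protein-coding genes whose exons overlap another gene were also among the largest rises. C7orf25, with an overlap on the same strand, went from 4.68 ± 1.25 to 10.9 ± 0.632 CPM (1.22 ± 0.124), BEST1, a chloride channel, from 3.85 ± 0.461 to 7.68 ± 0.628 CPM (1.00 ± 0.104), and OSTN, a secreted peptide, from 0.658 ± 0.0833 to 1.34 ± 0.244 CPM (1.02 ± 0.223). OSTN rested on fewer than 20 reads in some vehicle libraries.

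How far the changes belonged to an extract was read from each extract's own contrast and from the test between them. Soshiho-tang against vehicle called 3547 genes (21.9%), 1826 higher and 1721 lower. Yijin-tang against vehicle called 3218 (19.8%), 1750 higher and 1468 lower. These contrasts use the same 3 vehicle libraries. The Soshiho-tang count was 2338 without its replicate 1, and the Yijin-tang count was 1799 to 2053 without vehicle replicate 2 or 3 or its own replicate 1 or 3. Soshiho-tang against Yijin-tang called 16 genes (0.0987%), 1 higher and 15 lower with Soshiho-tang, and 37 by DESeq2 with its own filtering. Vehicle libraries enter this test through the filter and the estimate of spread. The count was 223 without Soshiho-tang replicate 3 and 3 to 8 without any other single library, those of vehicle included. At an unadjusted p under 0.05 there were 1396. Of the 2273 shared genes 3 were among the 16.

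The 16 included 4 of 7 measured targets of the aryl hydrocarbon receptor, a sensor of planar aromatic compounds that also binds plant products. CYP1B1, a monooxygenase and a main target, was at 121.5, 138.4 and 129.2 CPM with vehicle, 91.8, 90.3 and 90.5 CPM with Soshiho-tang and 138.7, 142 and 146.7 CPM with Yijin-tang. Soshiho-tang lay below and Yijin-tang above all vehicle libraries, and the difference between extracts was -0.65 ± 0.052 (log2, Soshiho-tang minus Yijin-tang, adjusted p = 9.98e-05). TIPARP, a feedback inhibitor of the receptor, was at 41.6, 45.3 and 44.2 CPM with vehicle, 43.7, 44 and 45.3 CPM with Soshiho-tang and 63.3, 61.1 and 64.8 CPM with Yijin-tang (-0.51 ± 0.050, adjusted p = 4.5e-04). Only Yijin-tang was apart from vehicle there. AHRR, the receptor's repressor, was at 45.1, 45.6 and 44.2 CPM, at 29.7, 29.2 and 28.7 CPM and at 38.6, 42.4 and 36.8 CPM (-0.43 ± 0.058, adjusted p = 0.00978), and both extracts lay below vehicle. Against vehicle, CYP1B1 fell with Soshiho-tang (-0.51, adjusted p = 8.99e-05) and did not pass with Yijin-tang (0.14, adjusted p = 0.0685), and TIPARP rose with Yijin-tang (0.54, adjusted p = 6.15e-05) and did not pass with Soshiho-tang (0.03, adjusted p = 0.768). In the pooled comparison neither CYP1B1 (-0.15, adjusted p = 0.521) nor TIPARP (0.30, adjusted p = 0.0953) passed. AHRR passed there (-0.39, adjusted p = 0.0151) and lost the call with the correction (-0.25, adjusted p = 0.111) and without vehicle replicate 2.

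**Figure D4:**
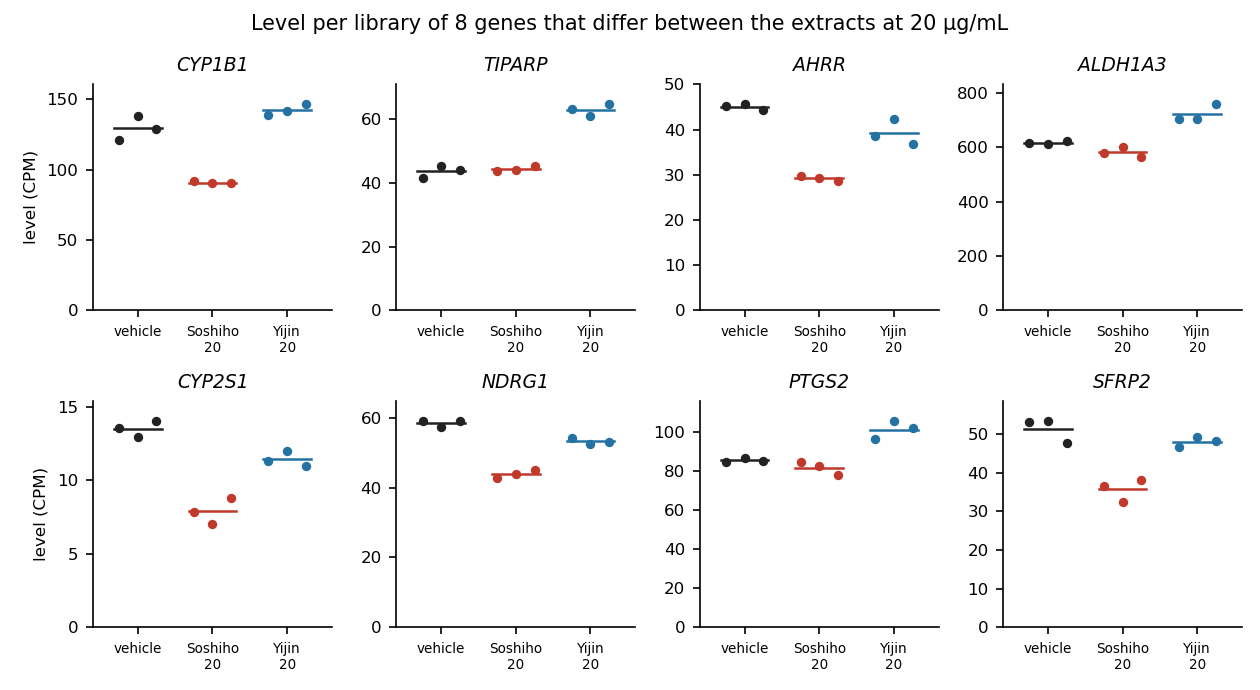
Level (CPM, linear axis from 0) of 8 genes called between the extracts, in each vehicle, Soshiho-tang and Yijin-tang library at 20 µg/mL; lines are group means. In all 8 genes the Soshiho-tang libraries lie below the Yijin-tang libraries, which the naming rule required of all but AHRR. CYP1B1 has 90.3 to 91.8 CPM against 138.7 to 146.7 CPM.

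Higher concentrations gave a comparison within a single library set that shares none of the 9 libraries. Soshiho-tang at 500 against 100 µg/mL called 3989 of 16669 genes (23.9%) and Yijin-tang 157 (0.942%), the last between 52 and 321 when single libraries were left out. Of the genes lower than vehicle at 20 µg/mL 21% fell further from 100 to 500 µg/mL of Soshiho-tang and 11.2% rose, against 11% and 12% of genes not called at 20 µg/mL. Of the genes higher at 20 µg/mL 12% fell and 13.7% rose. With Yijin-tang no such share exceeded 0.916%.

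Genes that differed from vehicle at 20 µg/mL were uneven in their response to concentration. Between 100 and 500 µg/mL of Soshiho-tang, NR1D1 (-0.05, adjusted p = 0.787), SRSF5 (-0.05, adjusted p = 0.572), CLK1 (-0.07, adjusted p = 0.539), HSPA1B (0.10, adjusted p = 0.255) and MT-ND6 (-0.24, adjusted p = 0.39) did not pass. EGR1 rose by 0.29 (adjusted p = 0.0268), against its direction at 20 µg/mL. BEST1, higher at 20 µg/mL, rose further with Soshiho-tang, from 7.43 to 17.9 CPM (1.27, adjusted p = 3.12e-06), and did not pass with Yijin-tang (-0.05, adjusted p = 0.93). COL1A1 fell by 0.90 (adjusted p = 1.18e-07) and NOTCH3 by 0.52 (adjusted p = 5.24e-04), in the direction seen at 20 µg/mL. CCNA2 fell by 0.62 (adjusted p = 5.08e-07) and ANKRD1 by 0.33 (adjusted p = 0.0205), against it. The R-spondin receptor LGR6, lower at 20 µg/mL (-0.47 ± 0.118, call lost without vehicle replicate 3), fell by 1.65 with Soshiho-tang (adjusted p = 8.18e-06) and by 1.14 with Yijin-tang (adjusted p = 0.00414).

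Levels in all other groups bear on the limit set by the library sets. For 1460 of the 4144 genes (35.2%) the 3 vehicle libraries lay outside the range of all 27 other libraries, above it for 724 and below it for 736. The 4144 were called on these same vehicle libraries, which favours such a separation. Its share among all genes tested was not counted. EGR1 had group means from 32.4 CPM (Okbyeongpung-san at 500 µg/mL) to 53.5 CPM (Soshiho-tang at 500 µg/mL) over all 12 extract groups, against 153.9 CPM with vehicle. GAR1 had means from 15.2 to 24.1 CPM against 11.9 CPM, and SRSF5 from 155.6 to 175.9 CPM against 105.7 CPM. These genes were named for their changes in the pooled comparison. For them every extract group was on the same side of vehicle, with 4 different extracts at all concentrations. The Okbyeongpung-san groups hold replicates 2 and 3 only and the Soyo-san groups replicate 3 only, so their values rest on fewer libraries. A difference between vehicle and extracts in general and a difference between the vehicle libraries and the rest cannot be told apart.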

How the data were processed

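RNA sequencing was made as directional paired-end libraries, per the labels' protocols. The authors deposited expected counts (estimated counts) per Ensembl gene, which they had made with RSEM 1.3.3 after STAR 2.7.3a, Trim Galore 0.6.5 and FastQC 0.11.9 on GRCh38, per the submitters' processing notes. Which annotation release and strand setting the counting used is not given in the sources used here. Values were rounded to whole counts. A value counted as not whole when it lay more than 1e-06 from a whole number, over all 60675 entries. Symbols and coordinates came from GENCODE v29, matched by identifier for 57055 of the entries. The table has 30 blank columns, which were not used.

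Genes were filtered with filterByExpr (minimum count 10, minimum total 15) and tested in edgeR 4.0.16 by quasi-likelihood (R 4.3.3, limma 3.58.1) after TMM scaling, in a 2-arm fit of 6 against 3 libraries. Single extracts were tested in a 3-group fit of the same 9 libraries, and 500 against 100 µg/mL in a fit of 12 others. Benjamini-Hochberg adjustment covered every gene tested, and an adjusted p under 0.05 counts as changed. Levels are TMM-scaled CPM over all 30 libraries with their SD, and fold changes are log2 values with their SE. The test was also run on simulated counts, and the outcome is not reported here. Chi-square per degree of freedom between libraries of a group was 3.21 to 25.75, so none looked deposited more than once.

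The grouping and the 43 gene lists (951 symbols) were chosen with earlier results of these data known. Lists are described by counts and medians, without a test. Named genes were, by rule, the 15 highest and 15 lowest shared fold changes with a symbol, at least 1 CPM in the higher arm and no overlap between arms. To these came up to 4 changed members of each list, the 10 most abundant changed genes, and the 5 highest and 5 lowest differences between extracts. SRF, TUBA1B, MT-ND3 and MT-CO3 were added after their values were seen. The alternatives were RLE and upper quartile scaling, TMM without mitochondrial genes, no filter or a stricter one, DESeq2 1.42.0, limma-voom, the replicate number as a block, a GC and length correction, other thresholds and leaving out each library.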

Additional observations from a re-analysis of the deposited data

Results flagged for a closer look

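Single genes changed unequally with the 2 extracts at 20 µg/mL by edgeR's quasi-likelihood test of the difference itself (adjusted p from 9.98e-05 to 0.0419 over the 11 named). All differences are log2 values, Soshiho-tang minus Yijin-tang, and all are negative. Among targets of the aryl hydrocarbon receptor they were -0.65 for CYP1B1, -0.51 for TIPARP, -0.43 for AHRR and -0.32 for ALDH1A3, a retinoic acid synthase. CYP2S1, another cytochrome P450, differed by -0.54 and NDRG1, a stress and hypoxia gene, by -0.28. In each of these all Soshiho-tang libraries lay below all Yijin-tang libraries. The rule for naming differences between extracts asks for this, so it adds no support, and only AHRR was named from its list. PTGS2, the inducible cyclooxygenase, differed by -0.31, the secreted Wnt modulator SFRP2 by -0.43, the hormone STC2 by -0.31 and the transcription factor FOXF1 by -0.34. SULT1A4, a sulfotransferase, differed by -3.28, from 0.137 ± 0.0219 CPM with Soshiho-tang to 1.37 ± 0.216 CPM with Yijin-tang (SD, n = 3), and its reads can be shared with its near-identical copy SULT1A3, so the value is uncertain.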

How the results depend on the processing

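All 174 named genes that passed kept their sign under every alternative, 43 kept their call throughout and 45 lost it with the GC and length correction. Of the named genes that did not pass, PTGS2 (-0.058 to 0.142), STC2 (-0.05 to 0.054) and VIM (-0.005 to 0.038) changed sign. Upper quartile scaling gave 1751 higher and 2301 lower. Scaling, filters, DESeq2, limma-voom and other fits left the pooled count between 3937 and 4486. The pooled count was 2753 with GC and length correction (1265 lower), 2088 at an adjusted p under 0.01 (1111 higher, 977 lower), 228 by glmTreat against a fold of 1.2 (104 and 124), and 2034 over the 6551 protein-coding genes without exon overlap, a set chosen after seeing the data (1060 and 974). The count of at least 1.5-fold was 223, 150 and 85 under the last 3. In the order correction, adjusted p under 0.01, glmTreat and protein-coding genes, the shared count was 1243, 902, 96 and 1235, that of Soshiho-tang 1956, 1611, 172 and 1857, and that of Yijin-tang 2107, 1330, 179 and 1643. Fewer genes tested or a harder threshold lower a count by construction; the cause of the fall with the correction was not tested. Soshiho-tang against Yijin-tang gave 281 without a filter, 37 and 42 by DESeq2 with its own filter and on edgeR's genes, 6 at an adjusted p under 0.01 and 3 by glmTreat. Yijin-tang at 500 against 100 µg/mL gave 299 in a fit over 21 libraries.

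Leaving out single libraries gave 2632 to 4339 genes in the pooled comparison (1285 to 2211 higher, 1347 to 2128 lower), 308 to 437 of at least 1.5-fold, 1314 to 2208 shared, 2338 to 3642 with Soshiho-tang, 1799 to 3832 with Yijin-tang, 3 to 223 between extracts and 52 to 321 for Yijin-tang at 500 against 100 µg/mL. The difference in mitochondrial share stayed between -2.92 and -2.27 points, but its exact permutation p, over fewer assignments, was not under 0.05 in every case.

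Same-numbered replicates did not vary together: correlations of their deviations ran from -0.348 to 0.146. With the replicate block the pooled count was 3492, the shared count 1727 and that between extracts 8. With the replicate block and the correction these were 2149 (1170 higher, 979 lower), 763 and 6, with 1218 for Soshiho-tang and 1364 for Yijin-tang.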

Other observations

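Lists not described above held small changes with both extracts against vehicle. Of 6 measured metallothionein and zinc response genes 3 were higher and none shared. MT2A, which binds zinc and copper, was at 134.5, 125.6 and 114.7 CPM with vehicle and 121.6 to 198 CPM with extract (median 175.8), so that the arms overlapped (0.43 ± 0.115, adjusted p = 0.0132 by edgeR's quasi-likelihood test), and it lost its call without single vehicle libraries. Of 38 interferon-stimulated genes 4 were higher and 2 lower, shares below the 13.5% and 12.1% of all genes. With the GC and length correction 5 were higher and none lower, where 9.18% and 7.8% of all genes were. B2M, the light chain of MHC class I, went from 537.2 ± 39.8 CPM (SD, n = 3) to 730.3 ± 81.3 CPM (SD, n = 6; 0.45 ± 0.085, adjusted p = 0.00185).

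FOXO targets were lower for 4 of 14 and higher for none, where 12.1% and 13.5% of all genes were. Among the 4 was IRS1, an adaptor of the insulin receptor, at -0.26 ± 0.050. Among 12 measured astrocyte and glioma identity genes 3 were lower and 1 higher (4 and none with the correction). SOX9, a regulator of glia and cartilage, was at 89.9 ± 4.8 CPM with vehicle and 74.4 ± 2.47 CPM with extract (-0.27 ± 0.045, adjusted p = 9.09e-04), and its vehicle libraries lay above all 27 others. Among 6 measured neuronal markers 2 were lower, of which TUBB3, a neuronal tubulin that tumour lines also express, fell by 0.39 ± 0.047 on the log2 scale. ID4, an inhibitor of differentiation and a BMP response gene, rose from 2.71 ± 0.553 to 4.51 ± 0.357 CPM (0.74 ± 0.129, adjusted p = 0.00114).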
